A study of Mus musculus with 7 samples.

Results

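The mitochondrially encoded transcripts of mouse lung are described here in 3 Scgb3a2 knockout and 4 wild type libraries. They were taken as the entries of the deposited count table whose symbol begins with mt-, which gave 16 of 28828 entries. These were all 13 protein-coding genes, both ribosomal RNA genes and 1 of the 22 transfer RNA genes that the GENCODE M21 annotation places on the mitochondrial chromosome (M) of GRCm38. The libraries were made from total RNA that had been extracted with Trizol from lung tissue of C57BL/6 mice, with the genotypes labelled knock out (KO3, KO4 and KO5) and wild type (WT2, WT3, WT4 and WT6). The numbers are those of the sample titles. The labels give no other allele, treatment, age or sex. They also do not state how many mice stand behind the libraries, and p-values therefore reflect a library-to-library spread that may be technical.

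The mitochondrial genome is a small circle that is transcribed from both strands into long precursors. Transfer RNAs lie between most of the other genes, and their excision releases the ribosomal and messenger RNAs. The proteins encoded are core subunits of respiratory complexes I, III and IV and of the ATP synthase, the other subunits of which come from nuclear genes. Most mitochondrial messenger RNAs carry a short poly(A) tail, and the transcript of mt-Nd6, the protein-coding gene on the opposite strand, is known for lacking one. Copies of mitochondrial DNA have also been inserted into nuclear chromosomes, where they are annotated as pseudogenes.

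Library totals ranged from 13071262 to 16480006 counts. Scgb3a2, the targeted secretoglobin gene of airway secretory cells, had 19, 19 and 37 counts in KO3, KO4 and KO5, against 4204, 4170, 2636 and 4165 in WT2, WT3, WT4 and WT6, so each library carried the level its label states. The alveolar type 2 and club cell marker lists summed to 11000 to 15320 and 11620 to 19840 CPM (counts scaled to TMM-adjusted library size) over all 7 libraries. KO5 and WT6 stood apart from the other 5 libraries. The mesothelium list (0 of 6 genes at 0 in all libraries) summed to 242 CPM in KO5 and 240 CPM in WT6, against 82.4 to 124 CPM in the others. The club cell list summed to 11620 and 13730 CPM in this pair, against 17230 to 19840 CPM.

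Members differed in abundance by several orders of magnitude, and the low messenger RNAs lay next to one another on the chromosome. The 16S ribosomal RNA mt-Rnr2 (chromosome M, 1094 to 2675, plus strand) was number 2 of the whole table by summed count, with 1654892 counts. The complex IV subunit mt-Co1 (5328 to 6872, plus strand) was number 7 with 585943 counts, and the 12S ribosomal RNA mt-Rnr1 (70 to 1024, plus strand) was number 20. In contrast, mt-Co2 (7013 to 7696), mt-Atp8 (7766 to 7969), mt-Atp6 (7927 to 8607), mt-Co3 (8607 to 9390), mt-Nd3 (9459 to 9806) and mt-Nd4l (9877 to 10173), which follow one another on the plus strand, had 26 to 694 counts each over all 7 libraries. Together these 6 genes held 0.127% to 0.219% of the mitochondrial messenger RNA counts of a library. Neighbours on either side were high, since mt-Co1 lies just before this block and mt-Nd4 (10167 to 11544, 54756 counts) just after it.

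Near-identical copies of this block, apart from mt-Atp8, are annotated in the nuclear genome. Each transcript was compared with all other GENCODE M21 transcripts in windows of 100 bases. Windows that occurred without a mismatch in a nuclear transcript made up 99.5% for mt-Co2, 99.5% for mt-Atp6, 99.9% for mt-Co3, 97.6% for mt-Nd3 and 98.5% for mt-Nd4l. For mt-Nd4 it was 60.8%, for mt-Co1 30.8% and for mt-Nd2 3.19%. No 100-base window of mt-Rnr1, mt-Rnr2, mt-Nd1, mt-Nd5, mt-Nd6, mt-Cytb or mt-Atp8 was shared. In shorter windows mt-Nd5 shared 7.61% at 50 bases and 1.66% at 75 bases, and mt-Rnr2 shared 1.04% at 50 bases. The shared 100-base windows of mt-Nd2, and some of those of mt-Co1 and mt-Co2, were found in pseudogenes on chromosome 2. The copies of the block on chromosome 1 are 7 pseudogenes (24611535 to 24616197, minus strand, GRCm38), spread over 4663 bases in the order of the mitochondrial genes.

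The spacing of these pseudogenes follows that of the mitochondrial genes closely. Gm29216 aligned with the last 483 bases of mt-Co1 at 99.8% identity, and the next copy, Gm28661, began 140 bases further on, as mt-Co2 does after mt-Co1. Alignments at 100% identity paired Gm28661 with mt-Co2 (681 bases), Gm10925 with mt-Atp6 (678 bases), Gm28437 with mt-Co3 (783 bases), Gm10222 with mt-Nd4l (294 bases) and Gm28439 with mt-Nd4 (876 bases). Gm28438 differed from mt-Nd3 at 1 of 345 aligned bases. No annotated transcript lies in the 233 bases between Gm28661 and Gm10925, the interval that corresponds to mt-Atp8. The genome sequence of that interval was not used here, so the 0% of mt-Atp8 covers annotated transcripts only.

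Copies on other chromosomes were more diverged. On chromosome 2 (22587291 to 22590533 over all 3, minus strand), Gm13340 aligned with mt-Co1 at 97.6% identity, Gm13341 with mt-Co2 at 95.9% and Gm13339 with mt-Nd2 at 96.7%. Gm4076 on chromosome 13 (85126550 to 85127514, minus strand) aligned with mt-Nd5 at 95.2%.

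The stretch of mt-Co1 where the chromosome 1 copy begins shows the edge of the shared block, with the part that aligns with Gm29216 in capitals (chrM:6330-6449, plus strand, GENCODE M21 transcript on GRCm38).
mt-Co1: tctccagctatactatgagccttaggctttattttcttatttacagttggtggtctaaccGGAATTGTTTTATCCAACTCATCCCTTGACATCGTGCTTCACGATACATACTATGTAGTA

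A stretch of mt-Co2 (chrM:7401-7500, plus strand) is shown with its copies on chromosome 1 (Gm28661, chr1:24615078-24615177, minus strand) and chromosome 2 (Gm13341, chr2:22587487-22587574, minus strand). Capitals in mt-Co2 mark the 12 bases that Gm13341 lacks, as a gapped alignment placed them, and capitals in Gm13341 mark bases that differ from mt-Co2.
mt-Co2: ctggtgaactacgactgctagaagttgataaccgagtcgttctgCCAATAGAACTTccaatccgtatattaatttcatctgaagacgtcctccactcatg
Gm28661: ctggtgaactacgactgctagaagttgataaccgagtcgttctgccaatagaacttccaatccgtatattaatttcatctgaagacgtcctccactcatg
Gm13341: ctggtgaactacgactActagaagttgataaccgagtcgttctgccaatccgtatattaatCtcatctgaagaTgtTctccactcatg
The chromosome 1 copy carried no difference in these 100 bases. The chromosome 2 copy lacked bases 433 to 444 and differed at 4 of the 88 others, with G405A, T462C, C474T and C477T, counted from 1 at the first base of mt-Co2. Over its whole length it differed at 16 of 672 aligned bases.

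The start of mt-Nd3 (chrM:9459-9496, plus strand) holds the single base that tells it from Gm28438 (chr1:24613082-24613119, minus strand), in capitals in the copy.
mt-Nd3: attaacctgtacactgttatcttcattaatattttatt
Gm28438: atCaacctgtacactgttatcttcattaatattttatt
This difference is T3C, counted from the first base of mt-Nd3. The mt-Co1 stretch at chrM:5928-6027 differs from the copy Gm13340 (chr2:22588948-22589047, minus strand) at 3 of 100 bases, again in capitals in the copy.
mt-Co1: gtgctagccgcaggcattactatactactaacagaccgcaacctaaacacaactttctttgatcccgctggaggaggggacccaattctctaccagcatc
Gm13340: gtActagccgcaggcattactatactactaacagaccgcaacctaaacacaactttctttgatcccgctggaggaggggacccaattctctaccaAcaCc
The substitutions are G603A, G696A and T699C.

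The mt-Atp8 transcript (chrM:7766-7969, plus strand) ends inside mt-Atp6, and the 43 shared bases are in capitals.
mt-Atp8: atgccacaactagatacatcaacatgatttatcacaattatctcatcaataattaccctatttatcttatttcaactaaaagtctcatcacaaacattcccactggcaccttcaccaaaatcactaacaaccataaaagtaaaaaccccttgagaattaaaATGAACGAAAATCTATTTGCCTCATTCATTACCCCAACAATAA
How reads with several positions, or within overlapping genes, were treated is not known from the labels or the table. Counts of the 6 low members and of their nuclear copies are therefore uncertain, and so are the parts of mt-Co1 and mt-Nd4 that lie in the shared block. The part of read sharing in the low counts was not tested.

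**Figure D1:**
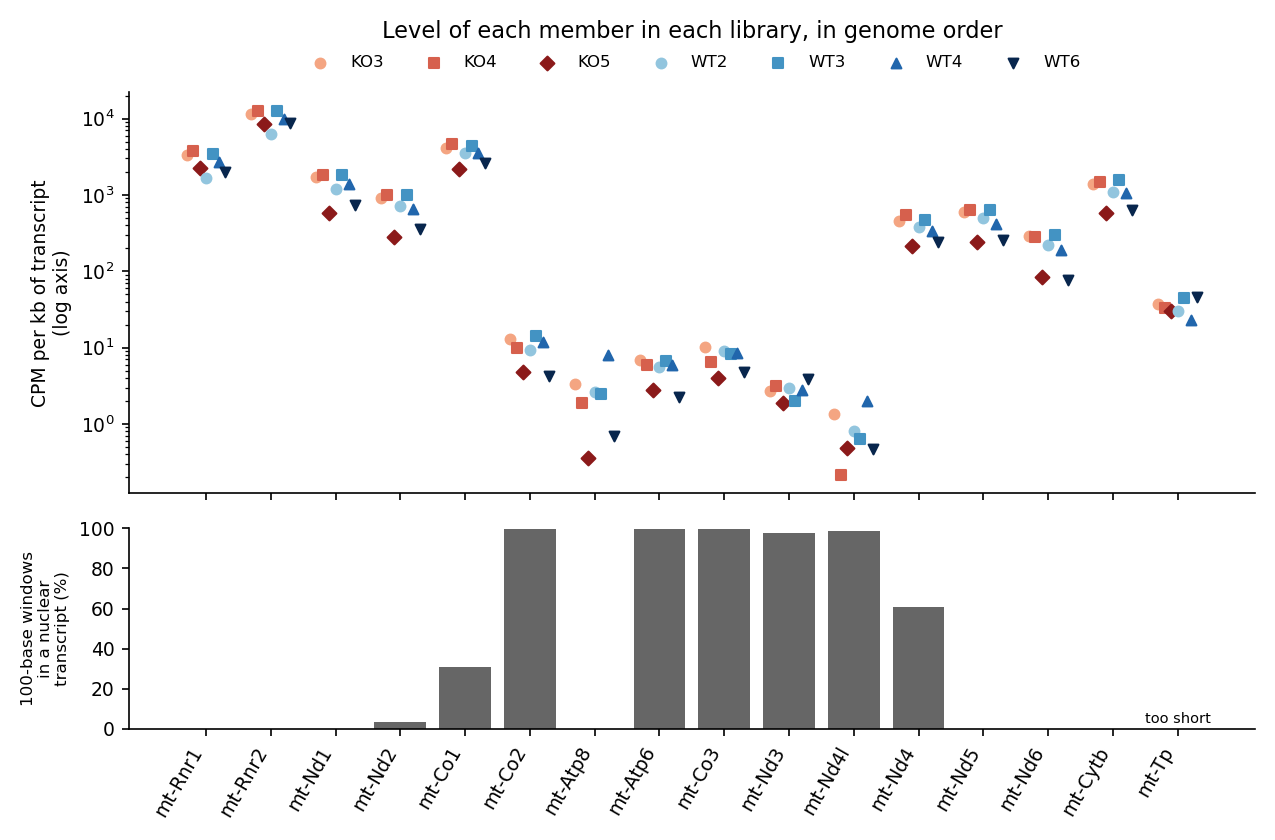
The upper panel plots the level of each of the 16 members (CPM per kb of transcript, log axis) in each of the 7 libraries, in genome order, and the lower panel the percent of its 100-base windows found in an annotated nuclear transcript. The members from mt-Co2 to mt-Nd4l reach at most 14.4 CPM per kb, and all of them but mt-Atp8 have over 97% shared windows, while mt-Tp is too short for a 100-base window.

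Counts of the copies stood beside those of the genes as follows. Gm28438 had 168, 193 and 80 counts in KO3, KO4 and KO5, and 152, 211, 152 and 95 in WT2, WT3, WT4 and WT6. Its mitochondrial counterpart mt-Nd3, a complex I subunit, had 14, 17 and 9 counts in the knockout libraries, and 17, 11, 13 and 19 in the wild type libraries. The copy, which differs by 1 base, thus had the larger count in 7 of 7 libraries. Gm28661 had 153, 109 and 78 counts in KO3, KO4 and KO5, and 109, 169, 145 and 80 in the wild type libraries. mt-Co2, a complex IV subunit, had 130, 105 and 46 counts in the knockout libraries, and 107, 154, 110 and 42 in the wild type libraries. The identical copy was larger than mt-Co2 in 7 of 7 libraries. Its excess was small in WT2 (109 against 107) and relatively largest in KO5 (78 against 46) and WT6 (80 against 42). The more diverged copy of mt-Co2, Gm13341, was larger than mt-Co2 in 7 of 7 libraries too, with 1514 against 694 counts over all of them. Gm10222 was larger than mt-Nd4l in 7 of 7 libraries (85 against 26 counts). For mt-Atp6 and mt-Co3 the copy was larger in 4 and 2 of 7 libraries. Copies of mt-Co1, mt-Nd2, mt-Nd4 and mt-Nd5 were larger in 0 of 7.

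The copies with mismatches held most of the pseudogene counts. Gm13340, the copy of mt-Co1 on chromosome 2, had 824, 745 and 197 counts in KO3, KO4 and KO5, and 711, 840, 636 and 207 in WT2, WT3, WT4 and WT6. Over all 7 libraries this was 4160 counts, set against 585943 of mt-Co1. All 11 copies together had 614 to 1822 counts per library. Gm13340 was lowest in KO5 and WT6, the libraries in which the mitochondrial messenger RNAs were lowest too. Relative to the mean of the other libraries of its genotype, Gm13340 stood at 0.28 in KO5 and 0.30 in WT6. Gm28437 and Gm29216, copies of mt-Co3 and of the end of mt-Co1, did not follow this pattern, with ratios of 1.12 and 0.89 in KO5 and of 1.16 and 1.06 in WT6. Gm13339 was under the filter on low counts, and none of the 10 copies tested was called between genotypes by edgeR.

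**Figure D2:**
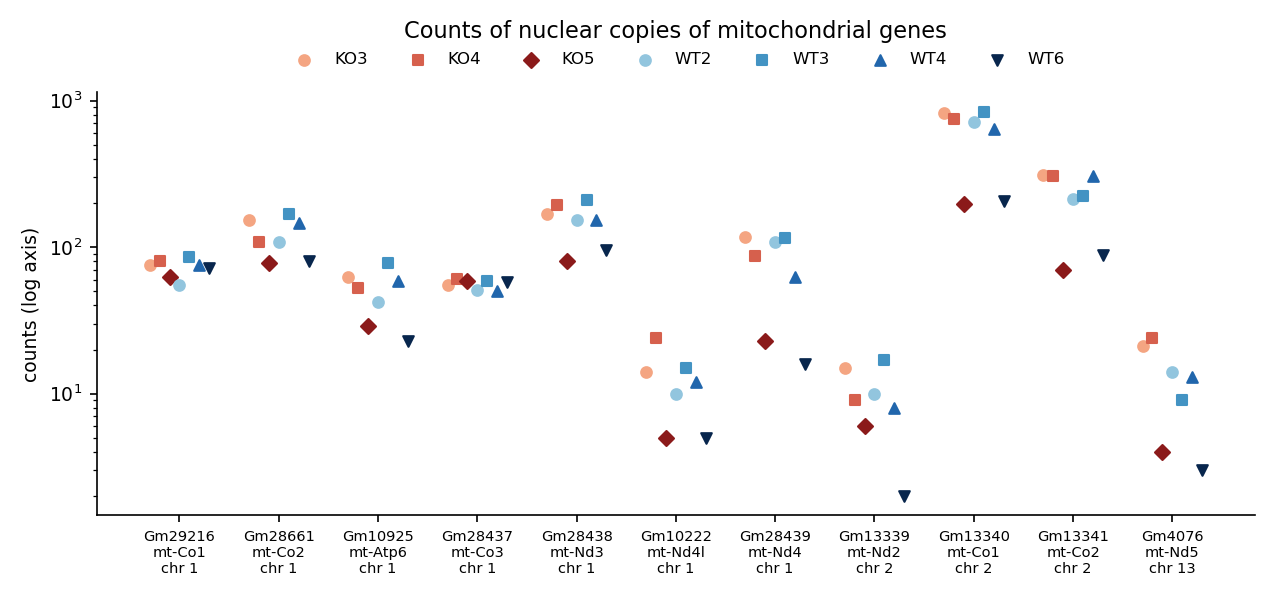
The plot gives the counts (log axis) of the 11 nuclear pseudogenes with near-identical sequence to a mitochondrial gene, by library, with the matching gene and the chromosome under each name. KO5 and WT6 are the lowest of their genotypes for Gm13340, while Gm28437 lies between 50 and 61 counts in all 7 libraries.

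Among members with at least 400 windows of their own, levels were compared per kb of unshared windows, which leaves the copied parts out of the length while the counts are those of the whole entry. mt-Rnr2 had 11530 ± 2287 CPM per kb in knockout lung (SD, n = 3) and 10030 ± 2834 CPM per kb in wild type lung (SD, n = 4). mt-Co1 followed with 5674 ± 2029 and 5462 ± 1077 CPM per kb in knockout and wild type lung, and mt-Rnr1 with 3490 ± 856 CPM per kb in knockout and 2754 ± 903 CPM per kb in wild type lung. The complex I subunit mt-Nd1 had 1525 ± 764 CPM per kb in knockout and 1441 ± 512 CPM per kb in wild type lung. mt-Cytb, the complex III subunit, had 1270 ± 549 CPM per kb in knockout and 1194 ± 410 CPM per kb in wild type lung. Lower levels were found for 4 further complex I subunits. These were mt-Nd4 (1105 ± 461 in knockout and 974 ± 257 CPM per kb in wild type lung), mt-Nd2 (830 ± 444 in knockout and 777 ± 301 in wild type), mt-Nd5 (523 ± 229 in knockout and 474 ± 165 in wild type) and mt-Nd6 (272 ± 145 in knockout and 241 ± 113 in wild type). The ranges of neighbours in this order overlapped between libraries, but within a library each of these 9 members lay above the next in 7 of 7 libraries. With windows of 50 or 75 bases the order of the means was the same. The place of mt-Nd4 rested on leaving the copied windows out of its length. Per kb of the full transcript it had 402 ± 168 CPM in knockout and 355 ± 93.6 CPM in wild type lung, below mt-Nd2 (726 ± 389 in knockout and 680 ± 263 in wild type) and mt-Nd5 (494 ± 217 in knockout and 448 ± 156 in wild type) in 7 of 7 libraries. The level of mt-Co1 depended on the window too, with 7762 CPM per kb in knockout and 7473 CPM per kb in wild type lung at 50 bases, against 3673 CPM per kb in knockout and 3536 CPM per kb in wild type lung over the full transcript. Per kb of the full transcript, mt-Co1 lay below mt-Rnr1 in KO5 (2183 against 2277 CPM) and above it in all other libraries.

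The strand of mt-Nd6 bears on its value. The gene lies on the minus strand (13552 to 14070) and overlaps mt-Nd5 by 14 bases, and the labels do not give the strand setting of the counting. Reads of mt-Nd6 and of transcripts from the opposite strand therefore cannot be told apart. mt-Nd6 counts were 13.9%, 12.6% and 9.90% of mt-Nd5 counts in KO3, KO4 and KO5, and 12.5%, 13.5%, 12.9% and 8.52% in WT2, WT3, WT4 and WT6.

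The single transfer RNA in the table was mt-Tp, which carries proline (chrM:15356-15422, minus strand). Its anticodon is in capitals, found as the middle bases of a 7-base loop closed by a 5-base stem.
mt-Tp: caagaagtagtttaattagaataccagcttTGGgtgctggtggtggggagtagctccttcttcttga
It had 37, 35 and 28 counts in KO3, KO4 and KO5, and 34, 47, 21 and 44 in WT2, WT3, WT4 and WT6. Per kb this was 33.6 ± 3.54 CPM in knockout lung (SD, n = 3) and 36.1 ± 11.2 CPM in wild type lung (SD, n = 4). For mt-Cytb, the nearest other member on the chromosome, it was 1160 ± 501 CPM per kb in knockout and 1091 ± 374 CPM per kb in wild type lung. These levels are not directly comparable, since mt-Tp is only 67 bases long and too short for a 75-base window. The other 21 transfer RNA genes were not among the entries and were not analysed here.

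The next comparison asked how much of each library the members took up and whether this differed between genotypes. Members held 3.33%, 3.64% and 2.24% of all counts in KO3, KO4 and KO5, and 2.2%, 3.56%, 2.71% and 2.36% in WT2, WT3, WT4 and WT6. The means were 3.07% ± 0.74 (SD, n = 3) in knockout lung and 2.71% ± 0.61 (SD, n = 4) in wild type lung. The groups overlapped throughout, with KO5 between WT2 and WT6 and the 0.36 percentage points between the means inside the SD of either group. Most of this difference lay in the ribosomal RNAs, since the messenger RNAs alone differed by 0.061 percentage points. The 95% Wilson intervals of these shares were at most 0.00918 percentage points wide on either side, so counting error is small beside the spread between libraries. Such intervals cover counting error only.

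Ribosomal RNA took up most of this share. The ribosomal RNAs held 2.11%, 2.29% and 1.63% of counts in KO3, KO4 and KO5, and 1.16%, 2.27%, 1.75% and 1.65% in the wild type libraries. The messenger RNAs held 1.22%, 1.35% and 0.60% in KO3, KO4 and KO5, and 1.04%, 1.29%, 0.96% and 0.71% in WT2, WT3, WT4 and WT6. Each class had its own low libraries. WT2 was lowest for ribosomal RNA, and KO5 and WT6 were lowest for messenger RNA. Accordingly there were 1.72, 1.69 and 2.72 ribosomal RNA counts per messenger RNA count in KO3, KO4 and KO5, and 1.12, 1.77, 1.82 and 2.34 in WT2, WT3, WT4 and WT6.

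**Figure D3:**
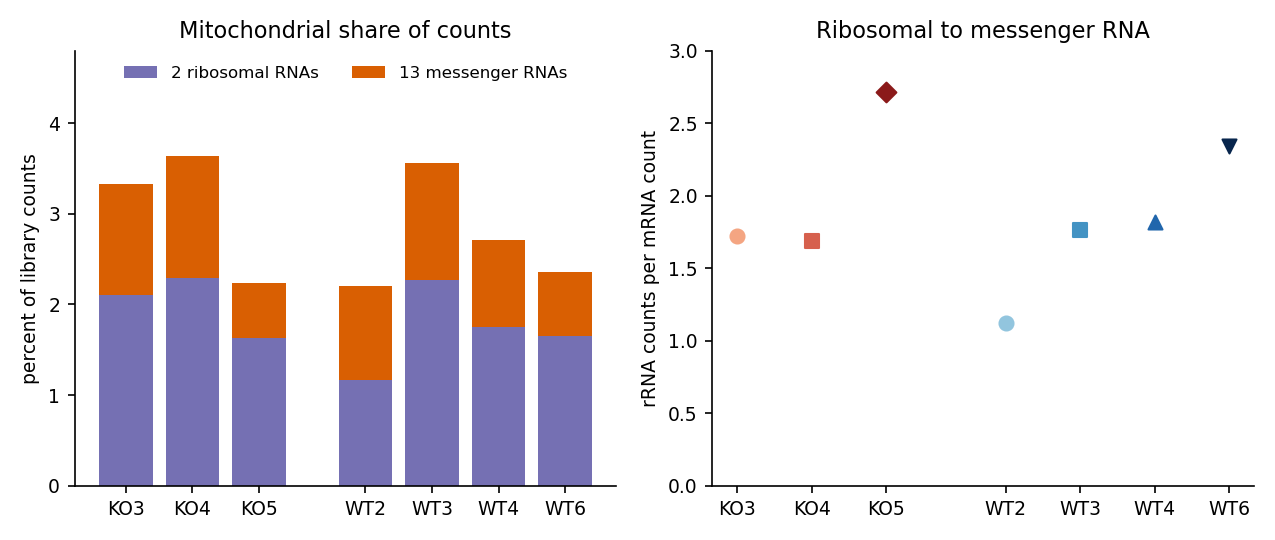
The left panel stacks the ribosomal and messenger RNA shares of all counts (percent) for the 3 knockout and 4 wild type libraries, and the right panel gives ribosomal RNA counts per messenger RNA count. The ratio is lowest in WT2 (1.12) and highest in KO5 (2.72) and WT6 (2.34), and neither panel separates the genotypes.

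Within the messenger RNAs, mt-Co1 alone made up 51.5%, 52.4% and 59.3% of the counts in KO3, KO4 and KO5, and 53.9%, 50.7%, 54.7% and 60.8% in WT2, WT3, WT4 and WT6. These are shares of the counts as tabulated, in which the 6 low members, whose counts are uncertain, held 0.127% to 0.219%. The shares of all other genes may therefore be too high as shares of the RNA itself. The 7 complex I genes together made up 35.5%, 35.1% and 28.8% in the knockout libraries, and 33.6%, 35.8%, 32.9% and 28.4% in the wild type libraries. mt-Cytb made up 11.7% to 12.9% in knockout and 10.8% to 13.4% in wild type libraries. The ATP synthase genes mt-Atp6 and mt-Atp8 made up 0.032% to 0.043% in knockout and 0.025% to 0.056% in wild type libraries, both genes being in the block with copies or overlaps. The shares overlapped between genotypes. KO5 and WT6 had the highest shares of mt-Co1 and the lowest of complex I genes.

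The messenger RNAs varied widely between libraries of 1 genotype. mt-Nd6 had 153, 146 and 44.2 CPM in KO3, KO4 and KO5, against 113, 154, 97.1 and 39.7 CPM in WT2, WT3, WT4 and WT6. mt-Nd2 had 943, 1029 and 291 CPM in the knockout libraries, and 750, 1032, 677 and 366 CPM in the wild type libraries. mt-Nd1 had 1624, 1747 and 555 CPM in KO3, KO4 and KO5, against 1155, 1771, 1313 and 707 CPM in the wild type libraries. In all 3 genes the lowest value of each genotype was that of KO5 or WT6. Set against the mean of the other libraries of its genotype, KO5 stood between 0.30 (mt-Nd2) and 0.49 (mt-Co1) over the 7 abundant messenger RNAs, and WT6 between 0.33 (mt-Nd6) and 0.69 (mt-Co1). The ribosomal RNAs moved less, at 0.64 and 0.70 in KO5 and 0.77 and 0.91 in WT6. WT2 showed the reverse, with 0.60 for both ribosomal RNAs and 0.91 to 1.17 for these messenger RNAs. WT3 was the highest wild type library for all 9 abundant members.

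Several other measures also differed between libraries. Rn7sk, a nuclear noncoding RNA of transcription control, held 0.85% of counts in KO5 and 0.81% in WT6, against 1.15% to 1.35% in the other 5 libraries. Malat1, a nuclear long noncoding RNA, held 1.92% to 2.21% in all 7. The nuclear retained RNA Neat1 was lowest in WT2, with 1738 CPM against 2711 to 3616 CPM in the other 6. The mesothelium and club cell sums given above set the same pair, KO5 and WT6, apart. So did the endothelium list, with 2387 CPM in KO5 and 2649 CPM in WT6 against 2998 to 3400 CPM in the other 5 libraries, and the adipose list, with 42.9 and 116 CPM in the pair against 22.2 to 33.6 CPM. The alveolar type 2 list summed to 11000 CPM in KO5 and 12910 CPM in WT6, against 12960 to 15320 CPM. The heart muscle list, which marks a tissue rich in mitochondria, summed to 520, 436 and 521 CPM in KO3, KO4 and KO5. In WT2, WT3, WT4 and WT6 it summed to 758, 446, 760 and 984 CPM, lowest in WT3 and highest in WT6. All 12 of its genes had negative fold changes, while 48.0% of all genes tested had positive ones. Of the 12, 6 had an unadjusted p under 0.05 (2.87% of all genes), and 0 were called by edgeR. The plasma cell list separated the genotypes: its sum was 608 CPM in KO3, 1141 CPM in KO4 and 2144 CPM in KO5, against 406 to 451 CPM in wild type libraries. Of its 6 genes 4 had an unadjusted p under 0.05 and 0 were called. None of these lists had a gene at 0 in all libraries. The part of these differences in the mitochondrial values was not tested. In whole tissue, fewer cells of a type and less RNA per cell cannot be told apart.

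**Figure D4:**
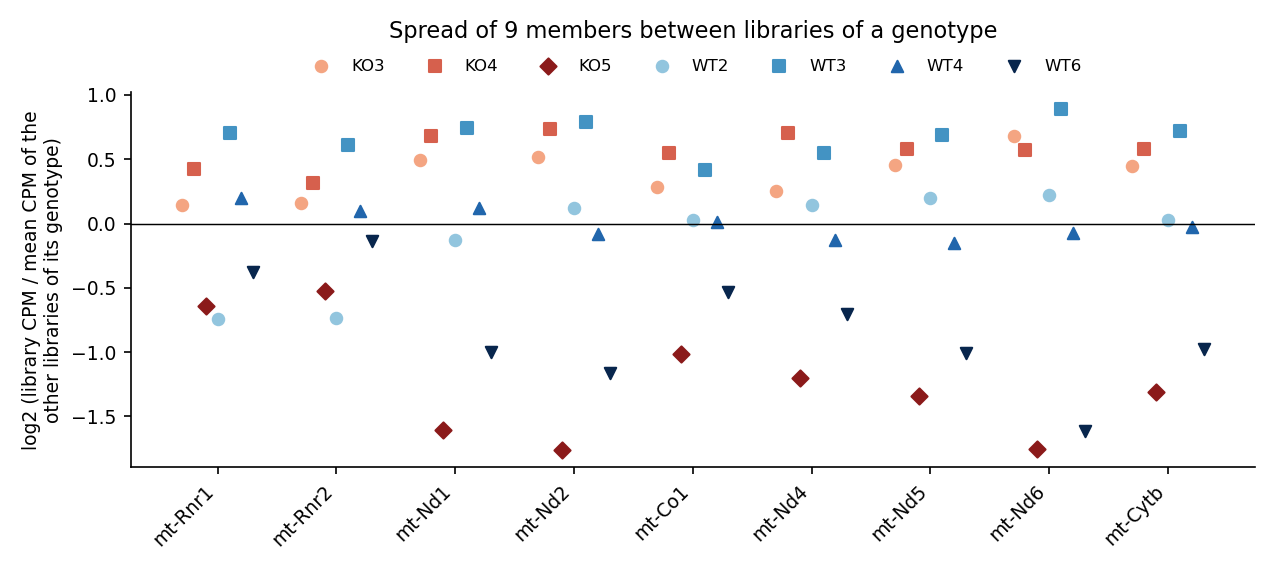
For the 9 abundant members the plot shows, for each library, the log2 ratio of its CPM to the mean CPM of the other libraries of the same genotype. KO5 and WT6 lie at the bottom for all 7 messenger RNAs, and WT2 and KO5 at the bottom for both ribosomal RNAs.

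No mitochondrial gene differed between genotypes beyond this spread. Of the 14 members that passed the filter on low counts (mt-Atp8 and mt-Nd4l did not), edgeR's quasi-likelihood test with Benjamini-Hochberg adjustment over 19832 genes called 0 at an adjusted p under 0.05, against 0.0353% of all genes tested (7 genes, 0.0252% higher and 0.0101% lower in knockout lung). At an unadjusted p under 0.05 the count was also 0, against 2.87% of all genes, and DESeq2 called 0 as well. The values of all 16 members overlapped between genotypes, as did those of most genes tested. Of all genes tested, 3.72% did not overlap (2.11% higher and 1.61% lower in knockout lung). The smallest p was 0.208, for mt-Rnr1. Log2 fold changes, knockout over wild type, ranged from -0.16 to 0.34 with standard errors of 0.23 to 0.59. Of these values 10 were positive and 4 negative, against 48.0% positive over all genes tested. The median of the members was 0.09, beside -0.01 over all genes tested.

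The ribosomal RNAs had the highest fold changes of the 14 members. mt-Rnr1, the RNA of the small mitochondrial ribosomal subunit, had 3188, 3598 and 2175 CPM in KO3, KO4 and KO5, against 1570, 3319, 2611 and 1930 CPM in WT2, WT3, WT4 and WT6. Its log2 fold change was 0.34 ± 0.25 (SE) with a 95% interval of -0.22 to 0.91 in edgeR's fit. mt-Rnr2, the RNA of the large subunit, had 18410, 19640 and 13250 CPM in the knockout libraries, and 9951, 20080, 15630 and 13850 CPM in the wild type libraries. Its log2 fold change was 0.20 ± 0.23 (SE) with an interval of -0.30 to 0.71. WT2 was the lowest library and WT3 lay above KO3 for both RNAs, and for mt-Rnr2 the wild type range enclosed all knockout values. Single libraries moved both values. That of mt-Rnr1 was 0.18 without KO4, 0.19 without WT2, 0.53 without KO5 and 0.55 without WT3, and that of mt-Rnr2 was 0.088 without KO4, 0.05 without WT2, 0.36 without KO5 and 0.38 without WT3.

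The complex IV and III messenger RNAs lay closer to 0. mt-Co1 had 6451, 7200 and 3372 CPM in KO3, KO4 and KO5, against 5546, 6725, 5487 and 4091 CPM in WT2, WT3, WT4 and WT6, with a log2 fold change of 0.06 and a 95% interval of -0.50 to 0.61. mt-Cytb had 1612, 1701 and 667 CPM in the knockout libraries, and 1266, 1771, 1230 and 724 CPM in the wild type libraries, with a log2 fold change of 0.09 and an interval of -0.78 to 0.95. For both genes KO5 was the lowest of all 7 libraries, and a single wild type library, WT3, exceeded KO3. The low members mt-Co2 and mt-Co3 had log2 fold changes of -0.13 and -0.16, with intervals of -1.05 to 0.80 and of -0.83 to 0.52.

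The widest intervals of the 14 members belonged to 3 complex I genes. mt-Nd6 had a log2 fold change of 0.18 with an interval of -1.29 to 1.64, mt-Nd2 of 0.10 (-1.10 to 1.29) and mt-Nd1 of 0.08 (-0.94 to 1.11). mt-Nd5 had 1102, 1157 and 447 CPM in KO3, KO4 and KO5, against 906, 1144, 754 and 466 CPM in WT2, WT3, WT4 and WT6, with a log2 fold change of 0.14 (-0.76 to 1.04). mt-Nd4 had 620, 746 and 297 CPM in the knockout libraries, and 526, 640, 458 and 331 CPM in the wild type libraries, with 0.18 (-0.54 to 0.91). In both genes KO5 was the lowest and KO4 the highest of the 7 libraries.

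The remaining members were limited by their counts. mt-Nd3 had a log2 fold change of -0.16 (interval -0.95 to 0.63) from 9 to 19 counts per library. mt-Atp6, a subunit of the proton path of the ATP synthase, had 70, 64 and 26 counts in KO3, KO4 and KO5, and 64, 71, 54 and 22 in WT2, WT3, WT4 and WT6, with a log2 fold change of 0.03 (interval -0.80 to 0.87). mt-Tp had -0.11 (-0.73 to 0.52). mt-Atp8, the accessory ATP synthase subunit, had 10, 6 and 1 counts in the knockout libraries, and 9, 8, 22 and 2 in the wild type libraries. mt-Nd4l, a complex I subunit, had 6, 1 and 2 counts in the knockout libraries, and 4, 3, 8 and 2 in the wild type libraries. KO5 and WT6 were again lowest for mt-Atp6 and mt-Atp8, while mt-Nd3 and mt-Tp had no such low values in WT6.

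**Figure D5:**
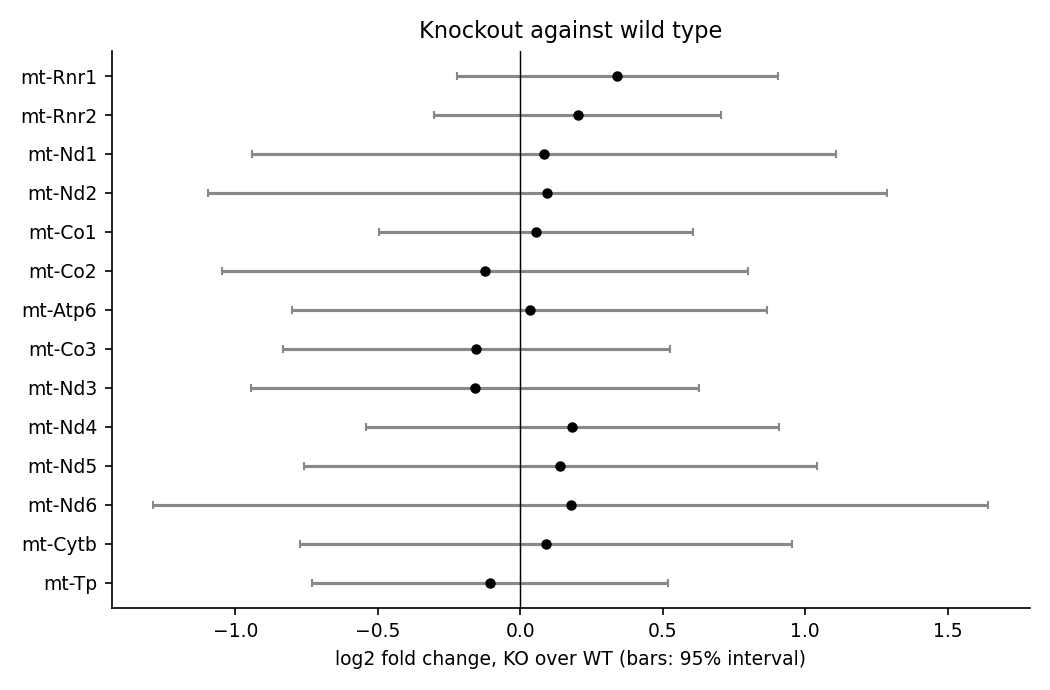
Points are log2 fold changes (knockout over wild type) of the 14 members that passed the filter, in genome order, with 95% intervals from edgeR's fit. All intervals include 0, and they are widest for mt-Nd6 (-1.29 to 1.64) and narrowest for mt-Rnr2 (-0.30 to 0.71).

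The direction of the members depended on single libraries of either genotype. Leaving out KO5, which was low, gave 13 positive values among 15 tested members and a median of 0.36, whereas leaving out KO4 gave 2 positive among 14 and a median of -0.11, and leaving out KO3 gave 3 positive and a median of -0.09. Leaving out WT3 gave a median of 0.31 and leaving out WT6 a median of -0.07. Without both KO5 and WT6 the median was 0.22, with 12 of 15 members positive, and mt-Rnr1 and mt-Nd4 had log2 fold changes of 0.44 ± 0.35 and 0.34 ± 0.14 (SE). With a term for this pair in the fit the median was 0.11. None of these fits called a member.

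The nuclear genes that express and serve the mitochondrial genome were read from lists of known components. Calls made up 0.0353% of all genes tested, so 0 calls in lists of this size says little about them. The list for transcription and replication, which includes the mitochondrial RNA polymerase and the packaging factor Tfam, had 0 of 17 tested genes called and a median log2 fold change of 0.02. Its smallest p belonged to Primpol, a primase and polymerase, with 8.37 ± 0.65 CPM in knockout lung (SD, n = 3) and 6.57 ± 1.20 CPM in wild type lung (SD, n = 4). Tfb1m, a methyltransferase of the 12S RNA, and Tefm, the elongation factor, followed with log2 fold changes of -0.20 and -0.18. The list for RNA processing, modification and turnover had 0 of 34 called and a median of 0.01, led by the 16S RNA methyltransferase Mrm2 (-0.26), the helicase Supv3l1 (-0.15) and Trmt10c, a subunit of mitochondrial RNase P (0.14). The first list summed to 262 to 287 CPM in knockout and 260 to 284 CPM in wild type libraries, and the second to 622 to 642 CPM in knockout and 607 to 660 CPM in wild type libraries. KO5 and WT6 had the highest sums of their genotypes in both lists.

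The translation lists had 0 calls as well, beside 0.0353% of all genes tested. Among translation factors 0 of 11 were called, with the membrane insertase Oxa1l at 36.1 ± 1.78 CPM in knockout and 32.7 ± 0.73 CPM in wild type lung, and Mrrf and Mtrf1, factors of ribosome recycling and release, at -0.11 and -0.12 as log2 fold changes. Among aminoacyl-tRNA synthetases 0 of 19 were called. Mars2, for methionine, had a log2 fold change of 0.33 and Wars2, for tryptophan, of -0.22. Lars2, for leucine, had 56.7 ± 38.4 CPM in knockout lung and 107 ± 25.9 CPM in wild type lung, a log2 fold change of -0.92 ± 0.51 (SE) that did not pass. For proteins of the mitochondrial ribosome 0 of 77 were called, with a median of -0.03 and Mrpl35, Mrpl2 and Mrpl52 at -0.28, -0.22 and -0.22.

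Regulators of mitochondrial biogenesis had 0 of 12 called, with the nuclear receptor Esrrg at -0.40, the transcription factor Nrf1 at -0.10 and the coactivator Ppargc1b at 0.26 as log2 fold changes. Nuclear subunits of the respiratory chain and ATP synthase had 0 of 84 called and 12 positive values, against 48.0% positive over all genes tested. Their median was -0.07 beside -0.01 over all genes, and 4 of 84 did not overlap between genotypes (3.72% of all genes). Atp5a1, the alpha subunit of the ATP synthase, had 293 ± 19.6 CPM in knockout and 329 ± 10.1 CPM in wild type lung, and Ndufb6 and Ndufb8 of complex I had log2 fold changes of -0.31 and -0.18. Their summed level was 3230 to 3506 CPM in knockout and 3301 to 3756 CPM in wild type libraries, a much narrower spread than that of the mitochondrial messenger RNAs. No nuclear gene of these 7 lists had an unadjusted p under 0.05, against 2.87% of all genes tested.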

How the data were processed

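The deposited table holds whole-number read counts per gene symbol, not normalized, made by the authors. STAR, DESeq2 and the build mm10 appear in the submitters' processing notes, without versions or roles. The counting program, its annotation, its strand setting and its treatment of multi-position reads remain not given in the sources used here. All 28828 entries in 7 libraries were fitted with edgeR 4.0.16 in R 4.3.3 (filterByExpr by genotype, 19832 genes kept, TMM, robust quasi-likelihood test, two-sided, no covariate besides genotype, Benjamini-Hochberg threshold 0.05). CPM uses TMM-scaled sizes, in which 3 counts correspond to 0.18 to 0.22 CPM. Standard errors are the fold change over the square root of F. DESeq2 1.42.0 served as an alternative. Chi-square per degree of freedom was 4.30 for the closest pair of libraries, above sampling noise, so each was counted once. The fit was tested on simulated data.

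Positions and sequences came from GENCODE M21 (GRCm38, also called mm10), matched by symbol for all 16 members. Windows of 50, 75 and 100 bases were compared with all other transcripts on both strands. Copies were transcripts aligned by BLAST 2.17.0 at 95% identity or more over at least 200 bases. The stretch of Gm13341 was set against mt-Co2 by a gapped global alignment. No genome sequence was used.

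The members and gene lists were chosen with earlier results of these data known. Every messenger and ribosomal RNA was to be named, as were mt-Tp and, from each nuclear list of the pathway, the 3 genes with the smallest p. The marker lists of skeletal muscle, ciliated cells, alveolar macrophages and erythroid cells, which are not described with the members, summed to 15.8 to 47.7, 452 to 618, 495 to 730 and 1477 to 1900 CPM over the 7 libraries.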

Additional observations from a re-analysis of the deposited data

Results flagged for a closer look

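In wild type lung, mt-Co3 stood at 3.72 CPM in WT6, apart from the other 3 wild type libraries (6.56 to 6.98 CPM). The gap was 0.873 of the range of the group, over the 95% critical value of Dixon's test for 4 samples. Chance gives about 1 in 20 such results, and 35 groups of values were examined. Counts were 53 in WT6 and 91 to 116 in the other wild type libraries, and nearly all of mt-Co3 is shared with Gm28437.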

How the results depend on the processing

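No member was called under any of the 16 alternatives, and the smallest adjusted p of a member was 0.249. Scaling moved the median of all genes by at most 0.0144. Of 224 log2 fold changes under alternatives, 33 changed sign, 29 of them when 1 library was left out. Leaving out 1 library gave 0.18 to 0.55 (mt-Rnr1), 0.05 to 0.38 (mt-Rnr2), -0.18 to 0.45 (mt-Nd1), -0.20 to 0.48 (mt-Nd2), -0.32 to 0.021 (mt-Nd3), -0.092 to 0.49 (mt-Nd4), -0.08 to 0.47 (mt-Nd5), -0.089 to 0.56 (mt-Nd6), -0.13 to 0.41 (mt-Cytb), -0.15 to 0.33 (mt-Co1), -0.45 to 0.18 (mt-Co2), -0.54 to 0.12 (mt-Co3), -0.22 to 0.34 (mt-Atp6) and -0.26 to 0.028 (mt-Tp). Without both WT6 and KO5, mt-Nd3 turned to 0.18 and mt-Tp to 0.10. The share of counts, knockout minus wild type, ranged from 0.075 (without KO4) to 0.779 (without KO5) percentage points with 1 library left out. It was 0.061 for the messenger RNAs alone and 0.343 and 0.376 with other denominators. All lay within 1 SD of the main value (0.362, pooled SD 0.662 for the whole share). That SD is wider than the value itself, so this decides little.

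Calls over all genes numbered 7 in the main setting, 47 with DESeq2, 13 without robust estimation, 14 without WT6 and KO5, 29 with a term for this pair, and 3 (without WT2, WT3 or WT4) to 41 (without KO3) with 1 library left out. Numbers 3 and 4 occur in both genotypes, but nothing in the labels says that they pair mice. Deviations from the genotype mean correlated over genes at 0.26 for KO3 and WT3, 0.24 for KO4 and WT4, and 0.62 for KO5 and WT6. Deviations within a genotype depend on one another, so these values cannot show a pairing by number. A replicate block gave 140 calls on 1 residual degree of freedom, with mt-Nd3 at 0.29 and mt-Tp at 0.085 and no member called. The cause of these changes was not tested.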
